A study of Rattus norvegicus with 12 samples.

Results

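Polyamine metabolism was followed through 10 genes, Sat1, Odc1, Oaz1, Oaz2, Azin1, Amd1, Srm, Sms, Smox and Paox, in the whole pancreas of the rat. The members were chosen from the known pathway because 1 of them, Sat1, stood out in the measured values of these same arrays, so Sat1 is described by its values and was not tested. They were found by gene symbol among the 15866 probe sets of the array that are not controls. A probe set of their own was present for 9 of the 10 genes, 11 probe sets in all. The only probe set annotated to Smox carries a second gene symbol, and no value is given for it. The 10 probe sets of the other 8 genes form the tested set.

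Adult male Wistar rats formed 4 groups, with 3 arrays in each group and a pool of 3 rats on each array. HU animals were healthy and untreated, and HT animals were healthy and given sodium tungstate. DU animals were made diabetic with streptozotocin (STZ), a toxin of beta cells, and left untreated, and DT animals were STZ-diabetic and given tungstate. Tungstate, an oral agent that lowers blood glucose in diabetic rodents, was given in the drinking water at 0.7 g/L for the first week and then at 2 g/L, for 5 to 6 weeks in total, and untreated rats drank water alone. That schedule is from the sample labels, while the study's methods give the later concentration for the whole treatment. Because rats were pooled, the spread between arrays is a spread between pools.

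Polyamines (putrescine, spermidine and spermine) are small positively charged molecules that bind nucleic acids and are needed for cell growth. Ornithine decarboxylase (Odc1) makes putrescine, and spermidine and spermine synthase (Srm, Sms) extend it with aminopropyl groups taken from S-adenosylmethionine after its decarboxylation by Amd1. The antizymes (Oaz1, Oaz2) are made when polyamines are abundant and send Odc1 to the proteasome, and the antizyme inhibitor (Azin1) sequesters them. In catabolism, Sat1 acetylates spermidine and spermine for export or for oxidation by Paox, while Smox oxidizes spermine directly. The acinar cells of the pancreas are known for a high content of spermidine, and forced expression of Sat1 in transgenic rats is known to deplete pancreatic polyamines and to cause acute pancreatitis.

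Promoters are shown for 3 genes with a sequence at hand, Sat1, Odc1 and Paox, a choice made from their values in these arrays and not a test result. Each is the 250 bases before the annotated start of the gene in RefSeq (GRCr8). Capitals mark a GC box (GGGCGG) or a TATA box (TATAA), searched on both strands. The Sat1 promoter lies at chrX:44007839-44008088, the Odc1 promoter at chr6:46058415-46058664 and the Paox promoter at chr1:204349076-204349325, all on the forward strand.
Sat1: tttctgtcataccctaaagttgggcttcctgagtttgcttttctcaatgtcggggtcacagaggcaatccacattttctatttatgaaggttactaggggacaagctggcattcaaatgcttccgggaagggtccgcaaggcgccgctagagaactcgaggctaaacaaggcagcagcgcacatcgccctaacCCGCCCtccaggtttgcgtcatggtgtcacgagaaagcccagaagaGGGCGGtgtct
Odc1: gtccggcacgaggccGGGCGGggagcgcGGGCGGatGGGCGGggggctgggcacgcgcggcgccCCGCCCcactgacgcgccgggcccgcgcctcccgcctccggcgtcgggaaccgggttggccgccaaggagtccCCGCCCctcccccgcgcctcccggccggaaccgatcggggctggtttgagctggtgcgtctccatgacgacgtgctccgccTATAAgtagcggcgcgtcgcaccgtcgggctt
Paox: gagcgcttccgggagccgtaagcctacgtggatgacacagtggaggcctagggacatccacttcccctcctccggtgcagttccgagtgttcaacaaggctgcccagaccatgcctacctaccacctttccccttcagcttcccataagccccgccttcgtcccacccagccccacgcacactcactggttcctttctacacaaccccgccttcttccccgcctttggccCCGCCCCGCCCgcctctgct
Among the 9 members with a promoter in the table (Azin1 had no entry), 8 held a GC box, against 30.5% of 33469 promoters of this length, and 3 (Odc1, Oaz1 and Amd1) held a TATA box, against 24%. The E-box CACGTG was found in Oaz1 and Srm (5.59% of all promoters) and the CCAAT box (CCAAT) in the same 2 genes (34%). Neither the AP-1 site TGANTCA (6.34%) nor the cyclic AMP response element TGACGTCA (1.59%) was found in any member. In Oaz2, Amd1, Sms and Paox, 1 pair of matches of the same motif overlapped.

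The labels were checked on insulin and amylase, in log2 intensity. Ins2 was 13.34 ± 0.09 and 13.38 ± 0.08 in the healthy HU and HT animals, and 8.63 ± 0.32 and 10.08 ± 0.89 in the diabetic DU and DT animals (SD, n = 3 pools). The amylase Amy2a3 was 13.12 ± 0.07, 12.99 ± 0.16, 7.94 ± 1.29 and 12.95 ± 0.24 in HU, HT, DU and DT. The summed linear intensity of 6 beta cell markers ranged from 24900 to 27100 in HU, from 2370 to 3170 in DU and from 3480 to 8670 in DT arrays, and that of 10 acinar markers from 167000 to 170000, from 152000 to 158000 and from 164000 to 172000. Of these acinar markers, only the amylases Amy1 and Amy2a3 passed in DU vs. HU by limma, both lower. The median log2 difference over the 10 was -0.06. The other acinar markers lay between 13.92 and 14.56, near the highest value of each array (14.45 to 14.56). At that level neither the sum nor these differences can decide whether acinar content changed. The summed stellate cell and fibroblast markers (9 probe sets) ranged from 2830 to 3770 in HU, from 2420 to 3180 in DU and from 1660 to 2910 in DT arrays, and the summed leukocyte markers (10 probe sets) from 2630 to 5370, from 3060 to 4540 and from 1930 to 4440. In DT vs. HU, 2 of the 9 stellate probe sets passed by limma, of Col1a2 and Col3a1, both lower (1.32% of all passed). There 6 of the 9 had an unadjusted p under 0.05 (16.6% of all), and their median log2 difference was -0.51. No leukocyte probe set passed in that comparison. The summed markers of other islet cells (3 probe sets) ranged from 1340 to 1730 in HU, from 1780 to 2230 in DU and from 1010 to 2880 in DT arrays, and those of endothelial cells (3 probe sets) from 355 to 421, from 312 to 327 and from 278 to 349, so that DU and HU arrays did not overlap in either list. The other islet markers did not move together. From HU to DU the mean log2 intensity went from 8.89 to 10.21 for Sst, from 8.54 to 8.65 for Gcg and from 9.30 to 8.72 for Ppy. The part of these shifts in the results below was not tested, and in whole tissue a change in the number of cells of a type cannot be told apart from a change in RNA per cell. The arrays were scanned on 6 days, and no day held both DU and HU or both DT and HU arrays. The record of the second DU array notes an in vitro transcription of 7 hours.

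Sat1, the acetyltransferase of polyamine catabolism, was high in the pancreas of treated diabetic animals. Its log2 intensity was 6.49, 6.29 and 6.51 in the HU arrays. It was 6.41, 6.61 and 6.72 in the HT arrays. It was 6.47, 6.44 and 6.37 in the DU arrays and 7.83, 7.89 and 8.12 in the DT arrays. The HU, HT and DU arrays overlapped, and all 3 DT arrays lay above them. The group means of HU, HT, DU and DT were 6.43 ± 0.12, 6.58 ± 0.16, 6.43 ± 0.05 and 7.95 ± 0.15 (SD, n = 3 pools). DT exceeded DU by 1.52 on the log2 scale, a fold of 2.87, while DU differed from HU by 0.00 and HT from HU by 0.15. The lowest DT array exceeded the highest of the other 9 arrays by 1.11, and 0 of the 15866 probe sets had a wider gap of this kind. These values prompted the choice of the pathway and support nothing by themselves.

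The Sat1 difference was also measured within batches. On the scan day that held DT and DU arrays it was 1.39 (2 DT arrays against 1 DU array), and on the day that held a DT and an HT array it was 1.40. Within chip lot 1 the difference of DT to DU was 1.41 and to HU 1.35, with the third HU array the only HU array of that lot. Within lot 3 the difference of the third DT array to the third DU array was 1.75. These are values of the same arrays that prompted the choice of Sat1, and the gap of 1.11 between the DT arrays and all others had already fixed that each would be at least that large.

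**Figure D1:**
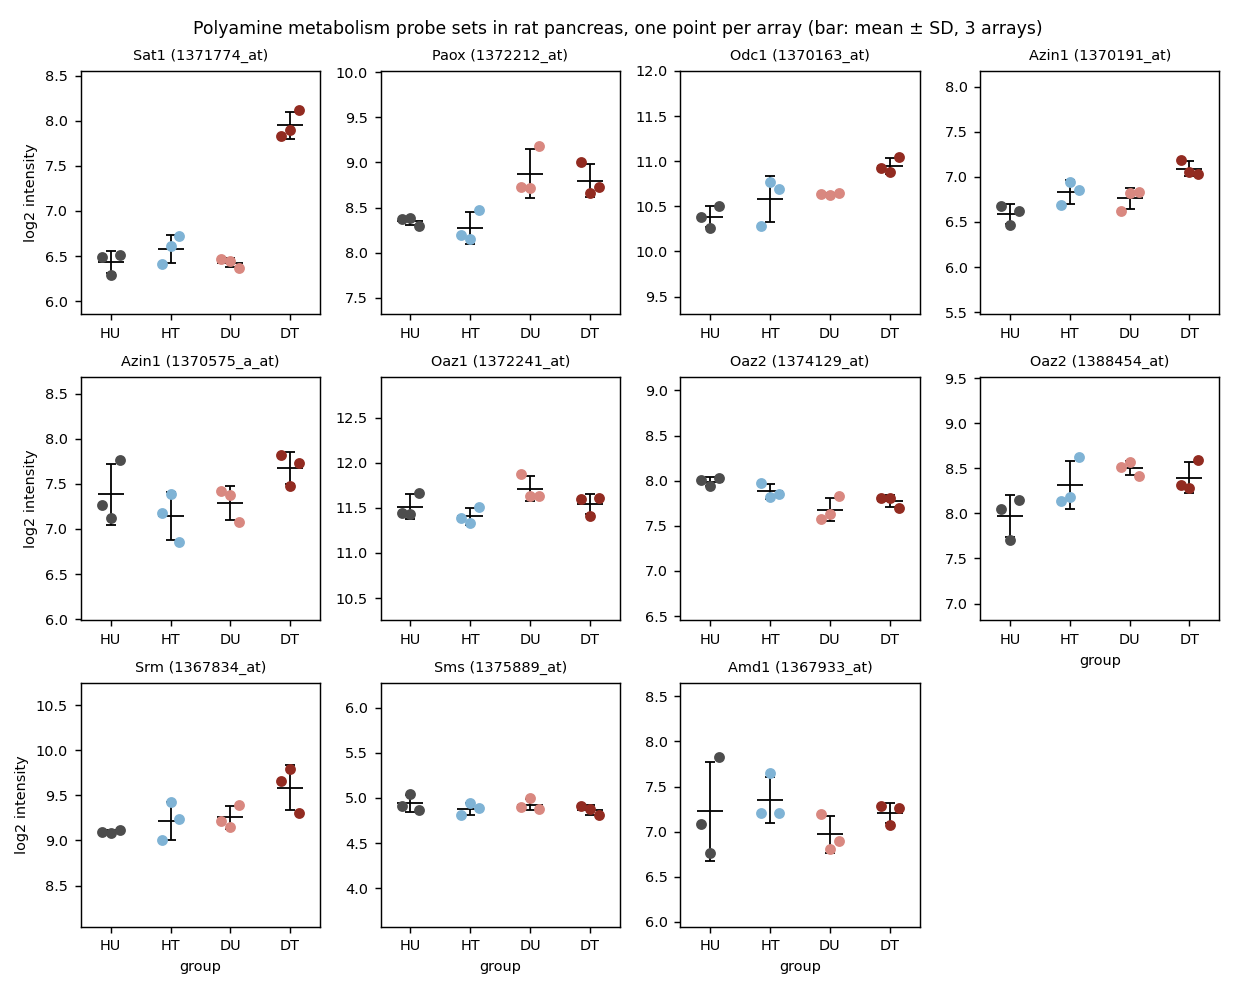
Log2 intensity of the 11 polyamine probe sets by group, each panel spanning the same range of 2.7 log2 units; points are arrays (each a pool of 3 rats) and bars the mean ± SD of 3 arrays. Sat1 was at 7.83 to 8.12 in DT arrays and at or below 6.72 in all others, Paox was higher in DU and DT than in HU and HT arrays, and Odc1 was highest in DT arrays.

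Paox, the oxidase that acts on the acetylated polyamines made by Sat1, had higher values in the arrays of diabetic animals with or without tungstate. No comparison between a pair of groups passed the test. Its log2 intensity was 8.37, 8.38 and 8.30 in the HU arrays and 8.20, 8.15 and 8.47 in the HT arrays. It was 8.73, 8.71 and 9.19 in the DU arrays and 9.01, 8.66 and 8.73 in the DT arrays. All 6 arrays of diabetic animals lay above all 6 arrays of healthy animals. The share of all probe sets that separate in this way was not counted. DU vs. HU was 0.53 (1.44-fold, SE 0.13, limma adjusted p = 0.0502), just outside the threshold of 0.05. It passed without the third HT array (adjusted p = 0.0366) or the first DT array (adjusted p = 0.0423), and it was 0.03 with scan day in the model (adjusted p = 0.989) and 0.46 with lot (adjusted p = 0.202). DT vs. HT was 0.52 (limma adjusted p = 0.0911) and DT vs. HU was 0.45 (adjusted p = 0.124), neither past the threshold. The difference of DT vs. DU was -0.08 (adjusted p = 0.923, 95% interval -0.37 to 0.21). With both treatments averaged, a contrast added after these values had been seen, diabetic exceeded healthy animals by 0.52 (1.44-fold, SE 0.09, adjusted p = 0.00604), where 6.08% of all probe sets passed. The averaged difference passed in 17 of 19 alternatives and was lost once the model held scan day (0.14, adjusted p = 0.857) or chip lot (0.49, adjusted p = 0.097). Within chip lot 1, DU exceeded HU by 0.43 and DT exceeded HU by 0.54, both against the third HU array alone. On the scan day shared by a DT and an HT array, DT exceeded HT by 0.25.

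Odc1, which catalyses the entry step of polyamine synthesis, was highest in DT animals. Its log2 intensity was 10.39, 10.26 and 10.50 in the HU arrays and 10.29, 10.77 and 10.69 in the HT arrays. It was 10.64, 10.63 and 10.65 in the DU arrays and 10.93, 10.88 and 11.04 in the DT arrays. The DT arrays did not overlap with those of any other group, and the DU arrays lay above the HU arrays but among the HT arrays. DT vs. HU was 0.57 (1.48-fold, SE 0.11, limma adjusted p = 0.0301), where 1.32% of all probe sets passed. DU vs. HU was 0.26 (adjusted p = 0.226, 3.20% passed) and DT vs. DU was 0.31 (adjusted p = 0.341, 1.12% passed), neither past the threshold. The DT vs. HU call was lost with scan day (0.38, adjusted p = 0.813) or lot (0.45, adjusted p = 0.214) in the model, and without any of 6 single arrays, the 3 HU arrays, the second DU array or the first or the third DT array, with adjusted p of 0.0519 to 0.113. It was also lost when only the DT and HU arrays were fitted (adjusted p = 0.0633). Within chip lot 1 the first and second DT arrays exceeded the third HU array, the only HU array of that lot, by 0.40. With treatments averaged, diabetic exceeded healthy animals by 0.31 (1.24-fold, adjusted p = 0.0373), and 9 of 19 alternatives kept this call; it was lost with either batch block and without any of 8 single arrays (adjusted p of 0.0595 to 0.0872).

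Azin1, which protects Odc1 by binding the antizymes, was measured by a pair of probe sets. For 1370191_at the log2 intensity was 6.68, 6.47 and 6.62 in the HU arrays and 6.69, 6.94 and 6.86 in the HT arrays. It was 6.63, 6.82 and 6.83 in the DU arrays and 7.18, 7.06 and 7.03 in the DT arrays. As for Odc1, the DT arrays were above all others. For neither gene was the share of all probe sets with such a separation counted. DT vs. HU was 0.50 (1.41-fold, SE 0.09, limma adjusted p = 0.0233), and DT vs. DU was 0.33 (adjusted p = 0.169). The DT vs. HU call was lost with scan day (0.37, adjusted p = 0.788) or lot (0.47, adjusted p = 0.161) in the model and without any HU array or the first DT array, with adjusted p of 0.0544 to 0.1. Fitted on the DT and HU arrays alone, its adjusted p was 0.077. Within chip lot 1 the first and second DT arrays exceeded the third HU array, the only HU array of that lot, by 0.50. For 1370575_a_at, the log2 intensity was 7.27, 7.12 and 7.77 in the HU arrays, 7.18, 7.39 and 6.85 in the HT arrays, 7.42, 7.38 and 7.08 in the DU arrays and 7.82, 7.47 and 7.74 in the DT arrays. Here the DT arrays overlapped with HU through the third HU array, and DT vs. HU was 0.29 (adjusted p = 0.416). Within chip lot 1 the difference of the first and second DT arrays to the third HU array was -0.12 for this probe set. The pair differed in sign in DU vs. HU (0.17 and -0.10) and in HT vs. HU (0.24 and -0.24), none past the threshold.

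The antizymes did not pass the test in any comparison. Oaz1 ranged from 11.43 to 11.67 in HU arrays, from 11.33 to 11.51 in HT, from 11.63 to 11.88 in DU and from 11.41 to 11.61 in DT arrays. DU vs. HU was 0.20 (limma adjusted p = 0.282) and DT vs. DU was -0.17 (adjusted p = 0.647). The pair of Oaz2 probe sets went in opposite directions between diabetic and healthy animals. For 1374129_at the log2 intensity was 8.01, 7.94 and 8.02 in the HU arrays and 7.58, 7.64 and 7.83 in the DU arrays, a difference of -0.31 (adjusted p = 0.0646). For 1388454_at it was 8.05, 7.71 and 8.15 in the HU arrays and 8.52, 8.57 and 8.42 in the DU arrays, a difference of 0.54 (adjusted p = 0.0589). In both the DU and HU arrays did not overlap, so no direction can be given for Oaz2. The first passed without the third DU array (-0.38, adjusted p = 0.0379), and the second passed without the third HT array (adjusted p = 0.026) or the third DT array (adjusted p = 0.0461). With scan day in the model the first gave -0.51 (adjusted p = 0.539) and the second 0.20 (adjusted p = 0.891), and with lot they gave -0.31 and 0.29 (adjusted p of 0.216 and 0.356).

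Of the enzymes that extend putrescine, none passed the test. Srm was 9.10, 9.08 and 9.11 in the HU arrays and 9.002, 9.42 and 9.24 in the HT arrays. It was 9.21, 9.15 and 9.40 in the DU arrays and 9.66, 9.79 and 9.31 in the DT arrays. The HU arrays were close together and below all DU and DT arrays, and the third DT array lay within the DU range. DT vs. HU was 0.49 (1.40-fold, limma adjusted p = 0.0809), and it passed without the third DT array (0.63, adjusted p = 0.0203). With scan day in the model it was 0.17 (adjusted p = 0.933) and with lot 0.47 (adjusted p = 0.291), and DU vs. HU turned from 0.16 to -0.34 with scan day (adjusted p = 0.828). Amd1 was spread widely among HU arrays (7.08, 6.77 and 7.83) and lay between 6.81 and 7.65 in the other 9 arrays, with adjusted p of 0.542 or more in DU vs. HU, DT vs. DU and DT vs. HU. Sms lay between 4.81 and 5.04 in all 12 arrays, a dim signal that falls among the 25% of probe sets with the lowest mean level. For Sms the 95% interval of DT vs. DU was -0.23 to 0.11.

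**Figure D2:**
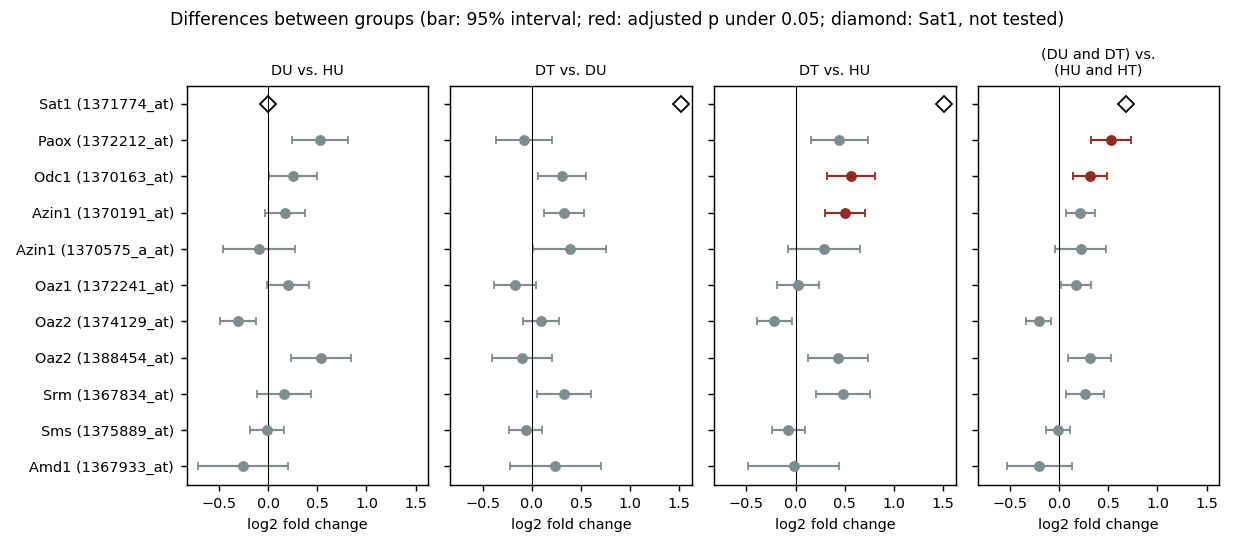
Log2 fold changes of the polyamine probe sets in 4 comparisons, with 95% intervals from limma; red marks an adjusted p under 0.05 and the open diamond is Sat1, not tested. Odc1 and Azin1 (1370191_at) passed in DT vs. HU, Paox and Odc1 passed in the averaged comparison of diabetic with healthy animals, and no tested probe set passed in DU vs. HU or DT vs. DU.

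Counted over the 10 tested probe sets, 0 passed in DU vs. HU and the median difference was 0.16, with 4 at an unadjusted p under 0.05, as had 20.2% of all probe sets. In DT vs. DU 0 passed with a median of 0.17, and 4 had an unadjusted p under 0.05 (9.89% of all). In DT vs. HU, 2 rose (Odc1 and 1 of the Azin1 probe sets) and 0 fell (1.32% of all passed), 6 had an unadjusted p under 0.05 (16.6% of all), and the median difference was 0.36. The groups' arrays did not overlap in 5 of the 10 probe sets for DU vs. HU, where 29.4% of all probe sets did not overlap, in 4 for DT vs. DU (13.9%) and in 6 for DT vs. HU (21.1%). The 3 comparisons share arrays and are not independent of each other. In HT vs. HU 0 of the 10 passed (median 0.03, 0.00630% of all probe sets passed, 2 unadjusted against 5.41% of all), in DT vs. HT 0 passed (median 0.20, 0.933% of all, 5 unadjusted against 12.7%) and in the interaction, DT vs. DU less HT vs. HU, 0 passed (median 0.10, 0.422% of all, 2 unadjusted against 8.75%). With diabetic states averaged, 0 of the 10 passed for tungstate against no tungstate (0.422% of all, 3 unadjusted against 7.57%), and the largest difference was 0.28 for Azin1 (1370191_at, adjusted p = 0.133). The other Azin1 probe set gave 0.07 there (1370575_a_at, limma adjusted p = 0.938). A difference between HT and HU animals in these genes was not detectable by limma at 3 pools a group.

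Around the pathway, 5 genes of the supply and use of polyamines and of Myc passed in DU vs. HU, where 3.20% of all probe sets passed, and none passed in DT vs. HU (1.32% of all). The lists are small (12, 8, 3, 7, 10 and 3 probe sets), and 1 or 2 calls in a list are not read as a result about the list. Ahcy, which clears the S-adenosylhomocysteine left by methylation, was 10.16, 10.40 and 9.995 in the HU arrays, 9.89, 9.86 and 10.06 in the HT arrays, 11.29, 10.96 and 11.20 in the DU arrays and 10.95, 10.67 and 10.51 in the DT arrays. All diabetic arrays lay above all healthy arrays, with DU vs. HU at 0.96 (1.95-fold, limma adjusted p = 0.00107) and DT vs. HT at 0.77 (adjusted p = 0.0134), the latter lost without any of 3 single arrays (the first HT, the second HT or the first DT array), with adjusted p of 0.0593 to 0.0672. DT vs. HT for Ahcy was also lost with scan day (0.45, adjusted p = 0.281) or lot (0.81, adjusted p = 0.106) in the model, after quantile normalization (adjusted p = 0.0631) and on the DT and HT arrays alone (adjusted p = 0.0536). The share of all probe sets that separate diabetic from healthy arrays as Ahcy did was not counted. Mat1a, which makes S-adenosylmethionine, was 8.68, 8.43 and 8.85 in the HU arrays, 8.59, 8.88 and 8.49 in the HT arrays, 9.85, 9.57 and 10.09 in the DU arrays and 9.09, 9.16 and 8.37 in the DT arrays. It rose in DU vs. HU by 1.18 (2.27-fold, adjusted p = 0.00495) and was lower in DT vs. DU by -0.96 (adjusted p = 0.031), with the third DT array below all healthy arrays. These were 2 of 12 probe sets (11 of 12 listed genes) for S-adenosylmethionine supply and methylthioadenosine salvage that rose in DU vs. HU, and 0 fell. With scan day in the model, DU vs. HU was 0.81 for Ahcy (adjusted p = 0.416) and 0.48 for Mat1a (adjusted p = 0.691), and with lot in the model both passed (adjusted p of 0.0168 and 0.0395). The Mat1a call in DT vs. DU was lost with scan day in the model and without any of 5 single arrays (the first HU, the first HT, the first DU, the third DU or the third DT array), with adjusted p of 0.0528 to 0.122. It was also lost with the replicate block (limma adjusted p = 0.0593) and on the DT and DU arrays alone (adjusted p = 0.154).

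The other 3 genes passed narrowly. Asl, the lyase that makes arginine, was 5.83, 5.81 and 5.81 in the DU arrays and 6.02, 6.30 and 6.20 in the HU arrays for 1367754_s_at (-0.35, limma adjusted p = 0.0377), while its second probe set gave -0.16 (adjusted p = 0.314); it was the 1 of 8 probe sets of arginine and ornithine supply to pass. Dohh, which completes hypusine, the residue of the translation factor eIF5A built from spermidine, was 9.31, 9.19 and 9.17 in the DU arrays and 9.58, 9.64 and 9.59 in the HU arrays (-0.38, adjusted p = 0.0364), 1 of 3 probe sets of hypusination. Myc, a transcription factor known to drive Odc1, was 8.51, 7.86 and 7.74 in the DU arrays and 7.38, 7.36 and 7.44 in the HU arrays (0.64, 1.56-fold, adjusted p = 0.0408), 1 of 7 probe sets of Myc and its partners. The DU and HU arrays did not overlap in these 3 genes, which their choice by this comparison favours, and 29.4% of all probe sets did not overlap. Each call was lost when either batch term was in the model, with adjusted p of 0.0935 to 0.805. Each was also lost without some single arrays, for Asl any of 6 (adjusted p of 0.0524 to 0.135), for Dohh any of 7 (0.0548 to 0.12) and for Myc any of 7 (0.0541 to 0.121), the first DU array among them (0.40 for Myc, adjusted p = 0.0759). Asl was also lost after quantile normalization or median centring, with the replicate block and on the DU and HU arrays alone (limma adjusted p of 0.0519 to 0.0575). Dohh was also lost with median centring (0.0581) and with trend and robust options (0.0591), and Myc on the DU and HU arrays alone (0.0792). In DT animals Myc was 7.75, 7.53 and 7.51, above the HU arrays and below or within the DU range. The remaining lists were polyamine and cationic amino acid transport (10 probe sets, 7 of 12 listed genes) and other catabolism and antizyme. The latter held 3 probe sets, of Sat2, Aoc1 and the antizyme Oaz3. No probe set of either list passed in DU vs. HU, DT vs. DU or DT vs. HU by limma. In these comparisons 1 and 1, 0 and 0, and 0 and 1 had an unadjusted p under 0.05.

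**Figure D3:**
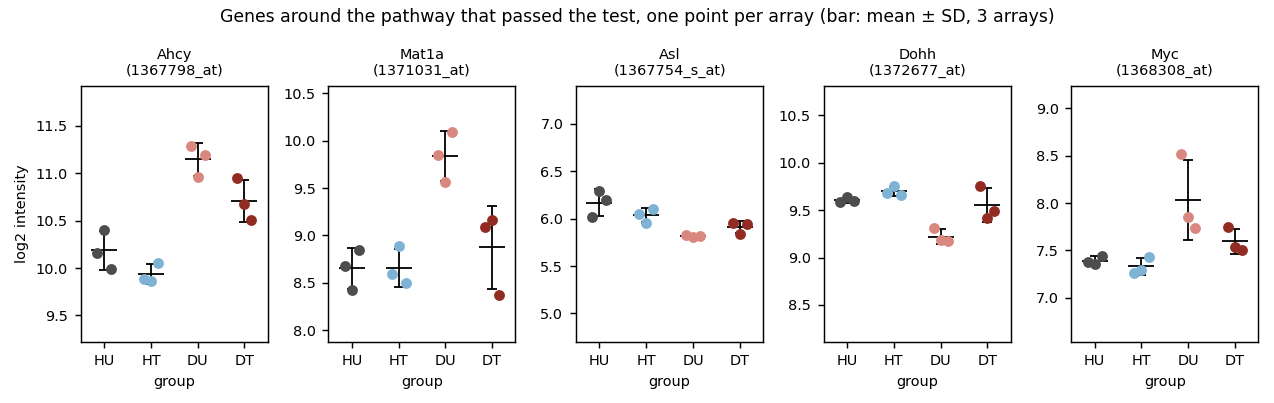
Log2 intensity by group of the 5 genes around the pathway that passed in DU vs. HU, each panel spanning 2.7 log2 units; points are arrays and bars the mean ± SD of 3 arrays. Ahcy and Mat1a were highest in DU arrays, Asl and Dohh were lower in DU than in HU arrays, and the first DU array held the highest Myc value of 8.51.

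The pattern of Sat1 over the group means was compared with that of 12772 probe sets that carry 1 gene symbol, as the distance between the means of HT, DU and DT, each taken relative to HU. The 6 nearest, given as a description, were C2cd4b (distance 0.33 log2 units), Slc25a35 (0.36), Dusp6 (0.36), Smoc1 (0.39), Tspan8 (0.41) and Lamb1 (0.44). Dusp6 is a phosphatase of the MAP kinase ERK, Tspan8 a membrane tetraspanin, Slc25a35 a mitochondrial carrier, and Smoc1 and Lamb1 belong to the extracellular matrix. DT exceeded DU by 1.92 for C2cd4b, 1.56 for Dusp6, 1.46 for Tspan8, 1.19 for Slc25a35, 1.02 for Smoc1 and 0.92 for Lamb1, against 1.52 for Sat1. In each of the 6 the lowest DT array was above the highest of the other 9 arrays, as the choice by pattern favours. The polyamine probe sets themselves were left out of this search.

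**Figure D4:**
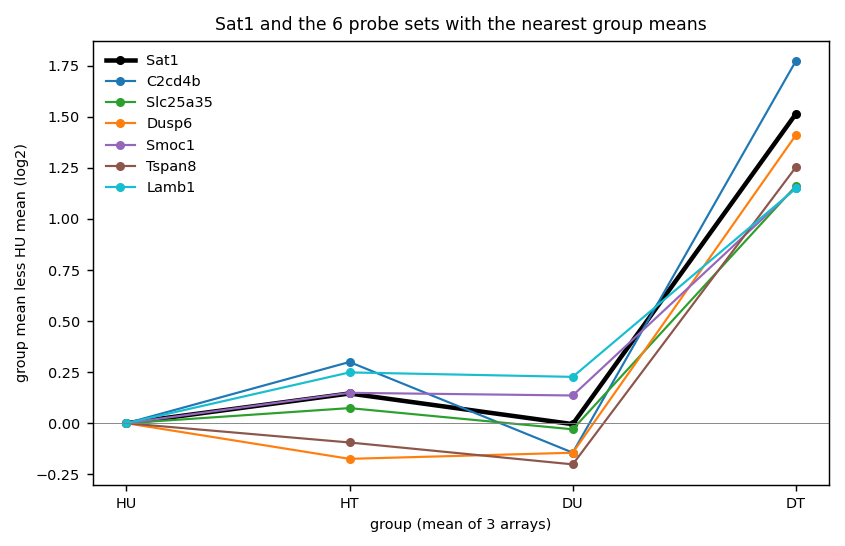
Group means (3 arrays each) of Sat1 and the 6 probe sets with the nearest pattern, in log2 units relative to the HU mean. C2cd4b in HT animals, 0.30 above its HU mean, is the highest point outside DT, and all 7 lines are highest in DT animals.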

How the data were processed

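RNA of whole pancreas was hybridized to 12 Affymetrix RAE230-A arrays. The deposited values are log2 intensities that the authors computed with RMA (affy, Bioconductor; version not given in the sources used here), which adjusts the background, normalizes quantiles and summarizes the probes of each set, and they were used unchanged. Symbols came from the platform annotation: of 15866 probe sets (57 controls left out), 12783 carried 1 symbol, 312 several and 2771 none.

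A mean for each group was fitted to all probe sets with limma 3.58.1 in R 4.3.3, and p-values were adjusted by the Benjamini-Hochberg method over all 15866, with a threshold of 0.05. Array medians lay between 6.63 and 6.70, and precision is limited by the 3 arrays a group. The procedure was tested on simulated data with known changes. Scan day and chip lot were read from the deposited array records and tried as blocks. The members and the gene lists around them were chosen with earlier results of these data known. Named genes were all members, those of each surrounding list that passed in DU vs. HU, DT vs. DU or DT vs. HU, the 6 probe sets nearest to the pattern of Sat1, and Ins2 and Amy2a3. The contrasts averaged over treatment or over diabetes were added after seeing the data. The alternatives were median centring, quantile normalization, omission of the dimmest 25% of probe sets, limma's trend and robust options, the B-statistic with a prior of 0.01, the replicate, scan day or chip lot as a block, only the arrays compared, and each of the 12 arrays left out in turn.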

Additional observations from a re-analysis of the deposited data

How the results depend on the processing

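Among the tested polyamine probe sets, the count past the threshold in DU vs. HU was 0 as reported. It was 1 after quantile normalization, without dim probe sets and with trend and robust options, each time Paox. With only the arrays compared it was 1, Oaz2 (1388454_at), and it lay between 0 and 2 when single arrays were left out. In DT vs. HU the count of 2 became 0 with the scan day block, the chip lot block and only the arrays compared, and lay between 0 and 2 when single arrays were left out. In the averaged comparison of diabetic with healthy animals the count of 2 became 0 with either of the scan day and chip lot blocks and 1 by the B-statistic, was 3 after quantile normalization, and lay between 1 and 3 when single arrays were left out. In DT vs. HT it lay between 0 and 1, with 1 only without the third DU array. The Sat1 difference of HT to HU, 0.15, turned to -0.0052 with the scan day block. The labels give equal replicate numbers in each group. Between groups, the deviations of same-numbered arrays from their group means had correlations of -0.287 to 0.314. Differently numbered arrays were not compared, so these values cannot decide whether the numbers pair the samples. With the replicate block 2 probe sets passed in DU vs. HU, those of Paox and Oaz2 (1388454_at). The cause of these changes was not tested. The block by scan day rests on few arrays, since no day held DU with HU or DT with HU arrays, and 3 pools a group leave differences of the size seen here near the threshold.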
